A study of Oryza sativa with 4 samples.

Results

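Pericentromeric peaks of histone H4 acetylated at lysine 5 (H4K5ac) are described here in rice leaves. They were chosen by position alone, as the peaks whose midpoint lay within 2 Mb of the centromere position set for each of the 12 chromosomes. Of the 28883 peaks of the well-watered list, 2215 (7.67%) met this rule, and of the 26147 peaks of the drought-stressed list 2032 (7.77%) did. They are set against the rest of the chromosomes (26579 and 24031 peaks) and, where the extent of a difference was in question, against the flanks from 2 to 4 Mb (2417 and 2184 peaks).

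Chromatin immunoprecipitation with sequencing (ChIP-seq) was run on Hanyou73, a rice cultivar, using leaves sampled at the grain filling stage, with 2 well-watered and 2 drought-stressed libraries. The groups shared cultivar, tissue, stage and antibody and differed, per the labels, in water supply. Both libraries of a condition point to 1 peak list, so there is no value per library and no spread between replicates, and each number describes a list. Read depth is unknown, and peak number and width both depend on it. For this reason no p-value is given. Intervals are at the 95% level. They reflect counting error alone and take adjacent peaks to be independent.

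The centromere is where the spindle attaches to a chromosome, and in rice its core carries arrays of short satellite repeats and centromere-specific retrotransposons. The chromatin around it is rich in transposable elements, poor in genes and low in recombination. Acetylation of lysine 5 on histone H4 is laid down by histone acetyltransferases and removed by deacetylases, and in plants it is found mostly at transcribed genes. An acetylated region near a centromere can therefore mark a gene, or another transcribed unit, within chromatin that is otherwise mostly silent. What the regions described here stand for was not tested. Repeats are also where short reads are hardest to place, and how reads with several possible positions were treated is not given in the sources used here.

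The centromere positions were 16.7 Mb on chromosome 1, 13.6 Mb on chromosome 2, 19.4 Mb on chromosome 3 and 9.7 Mb on chromosome 4. On chromosomes 5 to 8 they were 12.4, 15.3, 12.1 and 12.9 Mb, and on chromosomes 9 to 12 they were 2.8, 8.2, 12 and 11.9 Mb. None of these positions fell inside a peak, but peaks covered only 2.75% (well-watered) and 2.38% (drought-stressed) of the pericentromeric sequence. The peak-free interval around the position ran from 11528 bp on chromosome 1 to 116276 bp on chromosome 5 in the well-watered list, and from 6505 bp on chromosome 2 to 144548 bp on chromosome 5 in the drought-stressed list. The genome build of the lists is not given in the sources used here, so the positions could not be checked against a sequence.

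Acetylated regions were sparser near the centromeres in both lists. The well-watered list held 46.1 peaks per Mb within 2 Mb of the centromere and 81.8 per Mb beyond it, a ratio of 0.564. The drought-stressed list held 42.3 and 73.9 per Mb, a ratio of 0.573. The pericentromeric density was the lower one on 12 of 12 chromosomes in each list, with a mean difference over chromosomes of -33.8 ± 12.4 peaks per Mb (SD, n = 12 chromosomes) in the well-watered and -30.0 ± 11.5 in the drought-stressed list. Peaks covered 2.75% of the pericentromeric sequence and 5.01% of the rest in the well-watered list, against 2.38% and 4.23% in the drought-stressed list. Chromosomes of 1 genome are not replicates of a condition, so these counts describe how even the pattern was.

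**Figure D1:**
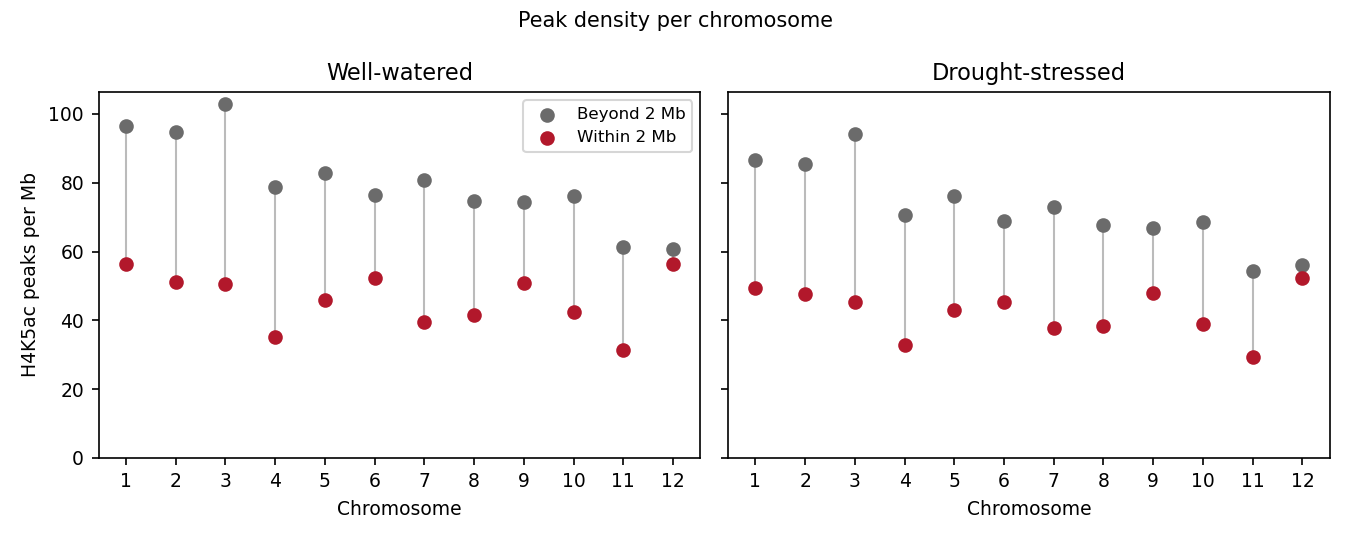
H4K5ac peaks per Mb (y axis) on each chromosome (x axis), within 2 Mb of the centromere (red) and beyond 2 Mb (grey), in the well-watered (left) and drought-stressed (right) list. The red point lies below the grey one on every chromosome, by the least on chromosome 12, where 56.2 and 60.6 peaks per Mb stood side by side in the well-watered list.

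The size of the deficit differed between chromosomes. On chromosome 4, the ratio of pericentromeric to remaining density was 0.448 in the well-watered and 0.464 in the drought-stressed list. On chromosome 12 it was 0.928 and 0.934, so that the number of peaks per Mb was nearly that of the rest. The covered share differed more, at 3.08% near the centromere and 3.68% in the rest in the well-watered list, and 2.72% and 3.17% under drought. The rest of chromosome 12 was also the sparsest rest of any chromosome in the well-watered list (60.6 peaks per Mb). The density ratios of the remaining 10 chromosomes lay between 0.489 and 0.682 in the well-watered list and between 0.481 and 0.720 in the drought-stressed list. The sparsest pericentromeric region was that of chromosome 11, with 126 well-watered and 117 drought-stressed peaks in 4 Mb (31.5 and 29.2 per Mb). Chromosome 1 had the most well-watered peaks (226, or 56.5 per Mb) and chromosome 12 the most drought-stressed peaks (209, or 52.2 per Mb).

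The low density was not limited to the 2 Mb of the rule. In steps of 0.5 Mb from the centromere, the well-watered density was 40.5, 45.2, 48.4 and 50.4 peaks per Mb. Just outside the boundary, from 2 to 2.5 Mb, it was 55.3, but it did not climb steadily from there. It was 47.5 from 3 to 3.5 Mb and 49.0 from 3.5 to 4 Mb, both under the 50.4 of the outermost step of the rule. From 5.5 to 6 Mb it was 57.4, still under the 81.8 of all sequence beyond 2 Mb. Under drought the 4 inner steps held 38.4, 41.4, 44.9 and 44.6 peaks per Mb, and the step from 2 to 2.5 Mb held 49.1. The steps from 3 to 3.5 Mb and from 3.5 to 4 Mb held 43.5 and 45.2. Over the whole flanks the densities were 51.6 and 46.7 per Mb, which puts the pericentromeric ratio at 0.894 and 0.907 against them. The pericentromeric density was under that of the flanks on 10 of 12 chromosomes in the well-watered and on 9 of 12 in the drought-stressed list, by -5.49 ± 12.1 and -4.29 ± 10.6 peaks per Mb on average (SD, n = 12 chromosomes). This mean difference was smaller than the spread between chromosomes.

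**Figure D2:**
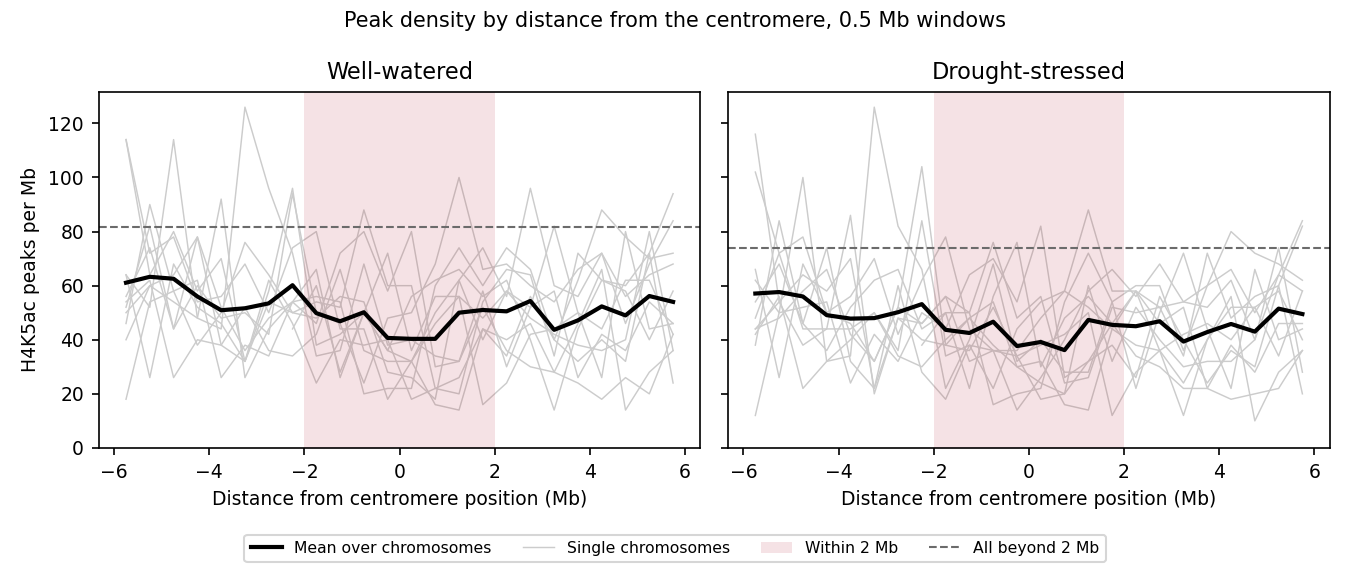
H4K5ac peaks per Mb (y axis) in 0.5 Mb windows by signed distance from the centromere position (x axis, Mb), for each chromosome (thin grey lines) and their mean (black), in the well-watered (left) and drought-stressed (right) list. The mean is lowest within 1 Mb of the position, though not always in the windows next to it. It stays below the dashed line, the density of all sequence beyond 2 Mb (81.8 and 73.9 per Mb), out to 6 Mb on both sides.

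Spacing followed the density. The median gap between neighbouring pericentromeric peaks was 11635 bp (95% interval 11001 to 12312 bp) in the well-watered list, against 6479 bp (6386 to 6580 bp) in the rest. Under drought it was 12936.5 bp (12228 to 13816 bp) against 7189 bp (7075 to 7289 bp). It was the longer one on 12 of 12 chromosomes in both lists, and longer than in the flanks (9356 and 10530 bp) on 11 of 12. Gaps over 50 kb made up 9.21% of the well-watered and 10.6% of the drought-stressed pericentromeric gaps, against 3.25% and 3.92% of the gaps in the rest. Gaps under 1 kb made up 8.17% and 7.82%, against 10.6% and 9.43%. Among windows of 100 kb, 24 of 480 pericentromeric ones held no well-watered peak (5%), against 72 of 3246 in the rest (2.22%), and in the drought-stressed list 29 (6.04%) against 93 (2.87%) were empty.

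Of the 3 longest peak-free stretches near a centromere in each list, those on chromosome 11 were found at nearly the same place in both. The longest was on chromosome 11, from 12291478 to 12640026 in the well-watered list (349 kb) and from 12291088 to 12640095 in the drought-stressed list (349 kb), 291 to 640 kb from the centromere position. It was longer than the longest gap anywhere beyond 2 Mb, 332 kb in both lists. A further stretch of chromosome 11, from 10232975, measured 270 kb in both lists. On chromosome 2, 257 kb from 14577858 to 14835178 held no well-watered peak, and on chromosome 1, 310 kb from 14829230 to 15138762 held no drought-stressed peak. The longest pericentromeric gap of chromosome 2 was 240238 bp under drought, and that of chromosome 1 was 256365 bp in the well-watered list. Chromosome 11 also had the most empty windows of 100 kb, 7 of 40 in each list, while chromosomes 6 and 9 had 0 of 40.

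The peaks that were present near the centromeres ranked higher by score than the rest on 11 of 12 chromosomes in each list. Scores are the authors' own, on a scale that is not stated, so each peak is given by its rank in its own list. The median pericentromeric peak stood at percentile 58.0 of the well-watered and 59.3 of the drought-stressed scores, against 49.5 in the rest of either list. The exception was chromosome 10, at percentile 45.7 against 50.7 in the well-watered and 46.6 against 49.9 in the drought-stressed list. Each list was divided into 5 equal classes by score, from class 1 (lowest) to class 5 (highest). Of the pericentromeric peaks, 687 (31.0%) and 633 (31.2%) were in class 5 of their list, against 19.1% of the rest in both. This share was the higher one on 12 of 12 chromosomes in both lists. In the flanks it was 25.8% and 25.5%, and pericentromeric peaks exceeded it on 10 of 12 chromosomes in each list.

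The leading pericentromeric peaks recurred under both regimes. Among well-watered peaks the order was chr5:10895714-10896442 (score 27763), chr4:9133048-9133540 (score 22186), chr11:12119065-12119297 (score 19613), chr10:7358978-7359933 (score 17258) and chr9:3415828-3416284 (score 16843). Ranked among all well-watered peaks, these were numbers 16, 21, 24, 29 and 30. The drought-stressed list was led by the same chromosome 4, 5 and 11 regions (scores 29959, 18762 and 17653), followed by chr4:9196454-9196737 (score 11991) and the chromosome 9 region (11789). Scores of the lists are not on a known common scale, so only their order within a list is read. The chromosome 11 peak, 119 kb from the centromere position, was only 233 bp wide in the well-watered and 234 bp in the drought-stressed list.

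The median width was close to that of the rest, with a lower lower quartile. Pericentromeric peaks had a median width of 620 bp (599 to 637 bp) in the well-watered list, against 611 bp (606 to 615 bp) in the rest. Among drought-stressed peaks the corresponding medians were 583 bp (569 to 600 bp) and 569 bp (565 to 573 bp). Over chromosomes the difference of medians was -0.042 ± 38.4 bp (SD, n = 12 chromosomes) in the well-watered list, far inside its spread. In the flanks the medians were lower, at 575 bp (561 to 592 bp) and 550 bp (534 to 566 bp), and the pericentromeric median exceeded them on 9 of 12 chromosomes in the well-watered and 10 of 12 in the drought-stressed list. The lower quartile was 297.5 bp near the centromere and 359 bp in the rest, while the upper quartile was 808 and 793 bp. Peaks of at most 200 bp, about the length of DNA on 1 nucleosome and its linker, made up 13.5% of the pericentromeric well-watered peaks against 9.46% of the rest, and more on 12 of 12 chromosomes. Under drought they made up 12.9% against 8.68%, and more on 11 of 12 chromosomes. The flanks, with 14.1% and 12.4%, held about as many.

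Chromosomes differed in this respect too. Chromosome 10 had the largest share of such short pericentromeric peaks (20.6% and 20.5%), and chromosome 3 the smallest (9.41% and 7.73%). The lowest median widths were those of chromosome 4, at 525 and 469 bp, and of chromosome 12, at 536 and 523 bp. Chromosome 2 had the highest, at 661 and 626 bp.

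The widest pericentromeric peaks included a pair of neighbours on chromosome 6 with low scores. A 3201 bp peak, chr6:15084217-15087417, had a score of 156, at percentile 31.6 of the well-watered list, and its drought-stressed counterpart spanned 3156 bp. Its neighbour chr6:15070603-15073335, 2733 bp wide, scored 136 and met 2 drought-stressed peaks, the wider of which measured 1442 bp. The next were chr12:9917712-9919672 (1961 bp), chr1:15581837-15583690 (1854 bp) and chr1:16929542-16931390 (1849 bp). Of these, the last stood at percentile 95.2 by score. It tied in width with chr5:13308271-13310119 (1849 bp). The 5 widest drought-stressed peaks were counterparts of peaks named here, with chr5:13308197-13310034 (1838 bp) among them.

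Short peaks with high scores made up a higher share of peaks near the centromeres than in the rest. This pattern was noticed in the data, with the limits of 300 bp and of score class 5 chosen after the values were seen. In class 5, 41 of 687 pericentromeric peaks were at most 300 bp wide in the well-watered list (5.97%, 4.43% to 8.0%), against 92 of 5072 in the rest (1.81%, 1.48% to 2.22%). Under drought there were 46 of 633 (7.27%, 5.49% to 9.56%) against 95 of 4582 (2.07%, 1.70% to 2.53%). The share was the higher one on 10 of 12 chromosomes in each list. The contrast was also seen in class 3, where 22.9% (18.8% to 27.5%) of pericentromeric and 6.40% (5.78% to 7.08%) of other well-watered peaks were this short, and 21.0% (16.9% to 25.8%) against 6.31% (5.66% to 7.02%) of the drought-stressed peaks. In class 1 the shares were 68.6% and 66.5% in the well-watered list, and 67.4% (62.2% to 72.1%) and 62.7% (61.3% to 64.0%) in the drought-stressed list.

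**Figure D3:**
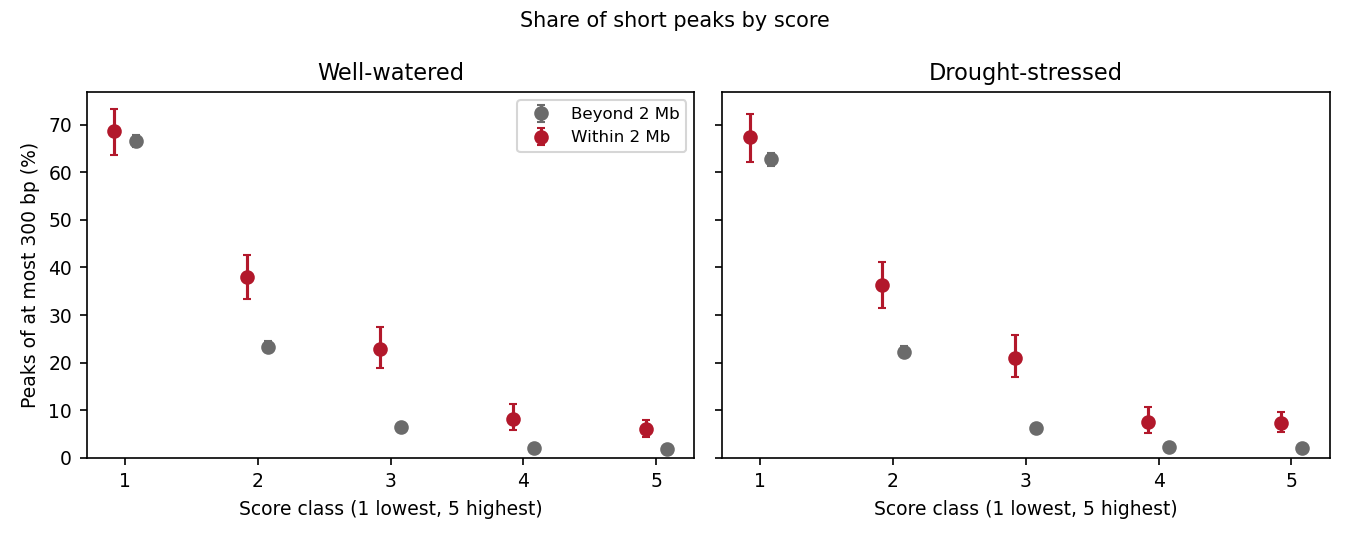
Share of peaks at most 300 bp wide (y axis, %) in each of 5 equal score classes of a list (x axis, lowest to highest), within 2 Mb of the centromere (red) and beyond (grey), in the well-watered (left) and drought-stressed (right) list. Bars are 95% Wilson intervals, which cover counting error only. The red points lie above the grey ones in all 5 classes of both lists, with 22.9% against 6.40% in class 3 of the well-watered list.

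The flanks shared this feature, with class 5 intervals that overlapped those near the centromeres in both lists. In the flanks, 33 of 623 well-watered peaks of class 5 (5.30%, 3.8% to 7.35%) were at most 300 bp wide. Of the drought-stressed flank peaks of class 5, 29 of 557 (5.21%, 3.65% to 7.38%) were, and in class 3 19.8% and 17.7% were. The highest shares were those of the innermost 0.5 Mb, with 20 of 168 class 5 peaks in the well-watered (11.9%, 7.84% to 17.7%) and 22 of 160 in the drought-stressed list (13.8%, 9.26% to 19.9%). Farther out the shares followed no steady course, with 5.42% and 8.61% from 0.5 to 1 Mb, 1.67% and 2.45% from 1 to 1.5 Mb, 5.20% and 4.40% from 1.5 to 2 Mb, and 6.77% and 6.45% from 3 to 3.5 Mb. Each of the 12 chromosomes held at least 1 short peak of class 5 in both lists. Chromosome 12 held the most in the well-watered list (7) and chromosome 4 in the drought-stressed list (10). Of these peaks, 39 of 41 and 46 of 46 were found under both regimes, as were 91 of 92 and 95 of 95 such peaks of the rest. Copy number of the sequence under them and the uniqueness of read placement were not available, and their part in these short peaks was not tested.

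The longest unbroken series of pericentromeric peaks of at most 300 bp, whatever their score, was on chromosome 12, whose centromere position of 11.9 Mb it did not span. From 11951434 to 12062504, 111 kb, 9 consecutive well-watered peaks measured 158 to 232 bp each, 8 of them overlapped a drought-stressed peak, and 1 was in score class 5. Under drought 8 consecutive peaks from 11951468 to 12062529 measured 149 to 212 bp. Longer series were found elsewhere, with 11 well-watered and 14 drought-stressed peaks on chromosome 5 from 29845012 and 29841040 on, so that such a series is not particular to the centromere.

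The next question was which pericentromeric regions were listed under both water regimes. Most were. A counterpart was lacking for 315 of 2215 well-watered peaks (14.2%, 12.8% to 15.7%), against 4045 of 26579 in the rest (15.2%, 14.8% to 15.7%) and 15.1% of the whole list. Of the drought-stressed peaks, 112 of 2032 had none (5.51%, 4.60% to 6.59%), against 1160 of 24031 in the rest (4.83%, 4.56% to 5.11%) and 4.89% of the whole list. Both pericentromeric shares are close to those of the whole lists. The well-watered-only share was below that of the rest on 8 of 12 chromosomes and the drought-stressed-only share above it on 9 of 12.

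**Figure D4:**
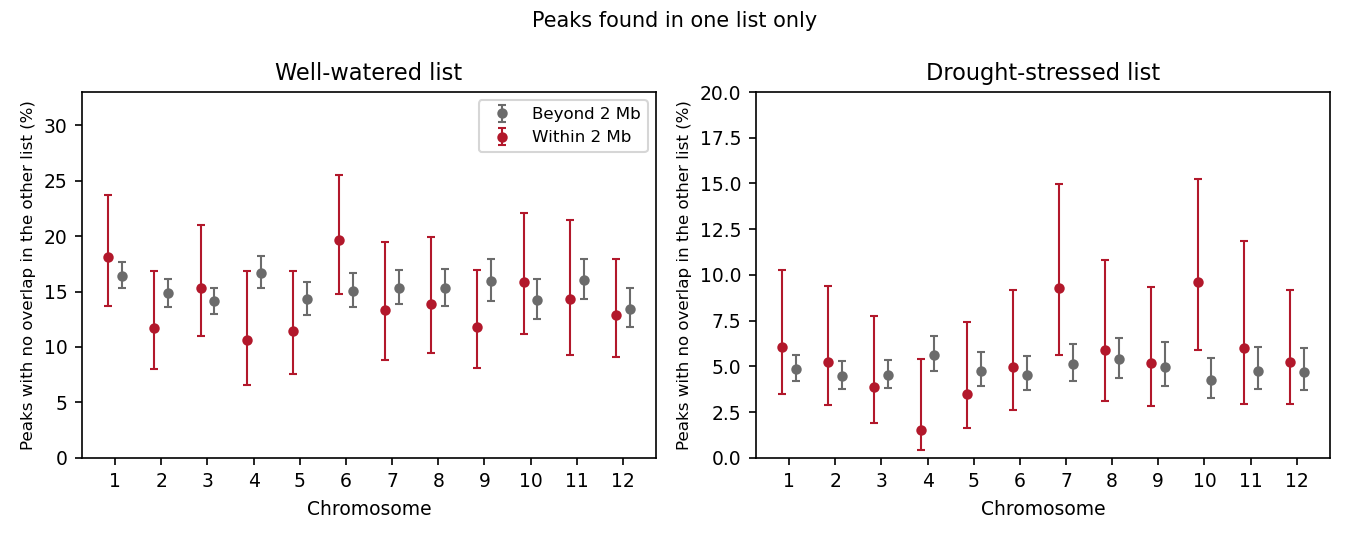
Share of peaks with no overlap in the other list (y axis, %) on each chromosome (x axis), within 2 Mb of the centromere (red) and beyond (grey), for the well-watered (left) and drought-stressed (right) list, with separate y scales. Bars are 95% Wilson intervals, which cover counting error only. The red points scatter around the grey ones, from 10.6% to 19.6% in the well-watered and from 1.53% to 9.62% in the drought-stressed list.

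Single chromosomes ranged widely around these values, on few peaks. The well-watered-only share was highest on chromosome 6 (41 of 209 peaks, 19.6%, 14.8% to 25.5%) and lowest on chromosome 4 (15 of 141, 10.6%, 6.55% to 16.8%). The drought-stressed-only share was highest on chromosome 10 (15 of 156, 9.62%, 5.91% to 15.3%) and on chromosome 7 (14 of 151, 9.27%, 5.60% to 15%). It was lowest on chromosome 4 (2 of 131, 1.53%, 0.42% to 5.40%).

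At like score, the single-list shares near the centromere were above those of the rest in classes 1 to 3 of both lists. Peaks of like score were not alike in width, however. In class 2, 37.9% of pericentromeric and 23.4% of other well-watered peaks were at most 300 bp wide, and 36.2% and 22.3% of drought-stressed peaks. The part of width in these shares was not tested. In score class 1 of the well-watered list, 63.6% (58.4% to 68.4%) of pericentromeric peaks had no counterpart against 60.6% (59.2% to 61.9%) of the rest, with overlapping intervals. In class 2 the shares were 18.5% (15.1% to 22.5%) and 14.1% (13.2% to 15.1%), and in class 3 1.93% (0.937% to 3.93%) and 0.835% (0.624% to 1.11%). In classes 4 and 5 they rested on 2 pericentromeric peaks each. Under drought 27.0% (22.5% to 32.0%) against 21.1% (20.0% to 22.3%) had no counterpart in class 1, and 5.41% (3.53% to 8.20%) against 2.66% (2.24% to 3.15%) in class 2. In its class 3 the share rested on 1 pericentromeric peak, and in its class 4 0 of 373 pericentromeric peaks had none, against 1 of 4838 in the rest. In its class 5, 0 of 633 pericentromeric peaks had none, which allows a share of up to 0.474%. With the rest weighted to the score classes of the pericentromeric peaks, the well-watered-only share near the centromere minus that of the rest was 1.66 percentage points, in place of -0.998 points. The flanks, at 59.4%, 19.3% and 3.30% in classes 1 to 3 of the well-watered list, were not below the pericentromeric shares in classes 2 and 3. In the drought-stressed list they stood at 25.2% in class 1 and 5.41% in class 2, the latter like the pericentromeric share.

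The highest-scored pericentromeric peaks listed under 1 regime were short. For well-watered leaves these were chr3:20898884-20899036 (score 2109, at percentile 96.8), chr12:13412004-13412144 (score 1700), chr8:13308819-13308978 (score 911), chr9:2851999-2852139 (score 889) and chr7:11412736-11412876 (score 435). They measured 141 to 160 bp and lay 5021 to 49924 bp from the nearest drought-stressed peak. The one on chromosome 9 was 52.1 kb from the centromere position. For drought-stressed leaves these were chr6:15472901-15473058 (score 265, at percentile 43.0), chr5:10430404-10430554 (score 222), chr10:10054520-10054732 (score 222), chr7:12088614-12088818 (score 205) and chr9:4675050-4675233 (score 173). These measured 151 to 213 bp. The one on chromosome 7 lay at -11.3 kb from the centromere position, so that the peak-free interval there was 66157 bp in the well-watered and 37586 bp in the drought-stressed list.

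The number and extent of acetylated regions differed between the lists near the centromere much as elsewhere. The drought-stressed list held 0.917 times as many pericentromeric peaks as the well-watered list, against 0.904 in the rest, and they covered 0.864 times the length, against 0.845. By chromosome, the ratio of peak number was higher near the centromere on 9 of 12 chromosomes, by 0.015 ± 0.028 on average (SD, n = 12 chromosomes), which is inside its spread. The ratio of covered length was higher on 11 of 12 chromosomes, by 0.016 ± 0.014. Its lowest value was 0.836, on chromosome 3, and its highest 0.884, on chromosome 9.

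The last question was whether a region listed in both conditions had the same extent in both. Peaks that overlapped each other and no other peak were taken as 1-to-1 pairs, of which 1848 were pericentromeric. Most of these were narrower under drought: 1379 (74.6%, 72.6% to 76.6%), against 16388 of 21796 in the rest (75.2%, 74.6% to 75.8%) and 75.1% of all pairs. The median change, drought-stressed minus well-watered, was -41 bp (-45 to -38 bp) near the centromere and -54 bp (-55 to -52 bp) in the rest, on pericentromeric median widths of 674.5 and 609 bp. The change was the smaller one near the centromere on 9 of 12 chromosomes, by 10.2 ± 15.1 bp on average (SD, n = 12 chromosomes), so the difference was inside the spread over chromosomes. In the flanks the median change was -42 bp (-48 to -37 bp) and the narrower share 71.6% (69.6% to 73.5%), so the smaller change was not particular to the 2 Mb around the centromere.

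Large losses of width made up a lower share of pairs near the centromere than in the rest. The well-watered peak was at least 1.25 times as wide as its counterpart in 346 pericentromeric pairs (18.7%, 17.0% to 20.6%), against 22.3% (21.8% to 22.9%) in the rest and 22.0% of all pairs. This share was the lower one on 10 of 12 chromosomes. The reverse, a drought-stressed peak at least 1.25 times as wide, was seen in 64 pairs (3.46%, 2.72% to 4.40%), against 4.37% in the rest and 4.29% of all pairs. In the flanks large losses made up 20.8% (19.1% to 22.7%), an interval that overlaps the pericentromeric one. Large gains made up 5.36% (4.45% to 6.44%) of the flank pairs, an interval that lies above the pericentromeric one.

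Pairs were also divided into 10 equal classes by mean width, from class 1 (narrowest) to class 10. Width class 1, which held 289 of the 1848 pericentromeric pairs (15.6%) and 9.40% of the rest, had a median change of -2 bp (-6 to 0 bp) near the centromere and -6 bp (-8 to -4 bp) in the rest. In width class 10 it was -76 bp (-93 to -62 bp) and -72 bp (-77 to -67 bp). Pericentromeric pairs had the higher narrower share in 7 of the 10 classes and the lower in 3, with 85.9% (80.2% to 90.1%) against 79.0% (77.3% to 80.7%) in class 10 and 67.6% (59.7% to 74.6%) against 77.4% (75.6% to 79.1%) in class 4. The rest weighted to the width classes of the pericentromeric pairs had a narrower share of 73.99%.

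**Figure D5:**
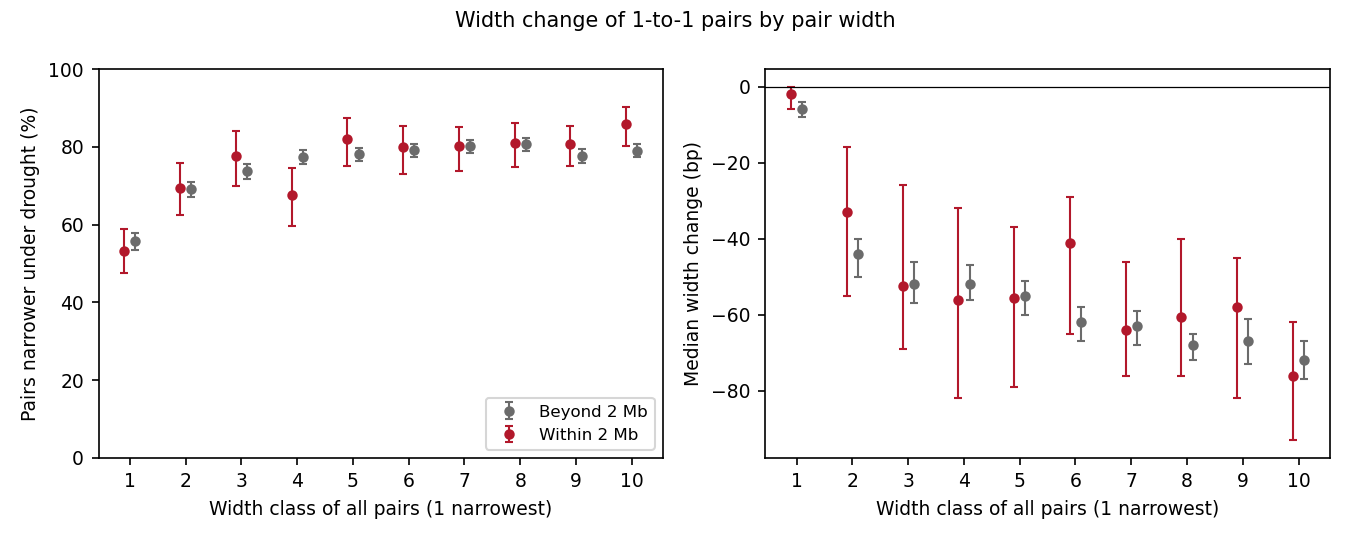
Share of 1-to-1 pairs narrower under drought (left, y axis in %) and median width change, drought-stressed minus well-watered (right, y axis in bp), in 10 equal classes of all pairs by mean width (x axis, narrowest to widest), within 2 Mb of the centromere (red) and beyond (grey). Bars are 95% Wilson intervals (left) and order-statistic intervals (right). Both groups follow a like course, apart from the narrower shares of classes 4 and 10, from a median of -2 and -6 bp in class 1 to -76 and -72 bp in class 10.

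Chromosome 12 had the lowest narrower share. There 126 of 194 pericentromeric pairs (64.9%, 58.0% to 71.3%) were narrower under drought, with a median change of -17.5 bp, beside 69.9% to 80.6% on the other 11 chromosomes. The rest weighted to the width classes of these pairs gave 72.6%. In width class 1, 12 of its 40 pairs were narrower, and in the wider classes 74.0% were. Chromosome 9 stood highest, with 137 of 170 pairs narrower (80.6%, 74.0% to 85.8%) and a median change of -65.5 bp.

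Short regions of high score differed little in width between the lists. Of the 39 pericentromeric pairs whose well-watered peak was in score class 5 and at most 300 bp wide, 19 were narrower, 17 wider and 3 equal, with a median change of 0 bp (-3 to 2 bp). Among the other 639 pericentromeric pairs of class 5 81.7% were narrower, with a median of -54 bp (-64 to -44 bp). The short pairs were picked by their well-watered width, which favours wider counterparts. The 89 such pairs of the rest had a like median of -1 bp (-4 to 1 bp). Pericentromeric pairs of width class 1, whatever their score, had a median change of -2 bp (-6 to 0 bp). The small change was therefore not particular to high scores.

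Single pericentromeric regions differed by far more than the median. The largest loss, from 1385 to 171 bp, was seen at the well-watered peak chr4:8474781-8476165. This change of -1214 bp was exceeded by the largest loss beyond 2 Mb (-1458 bp). The loss on chromosome 4 was followed by chr10:7224632-7225649, from 1018 to 208 bp, and by chr3:21392576-21393543, from 968 to 319 bp. A gain from 166 to 958 bp at chr8:10960034-10960199 was the largest, and its 792 bp exceeded the largest gain beyond 2 Mb (719 bp). Gains from 156 to 755 bp at chr3:21391766-21391921 and from 221 to 698 bp at chr9:3278280-3278500 came next. The loss and the gain on chromosome 3 were neighbours, separated by 654 bp in well-watered and by 715 bp in drought-stressed leaves. The scores of all 6 pairs were below percentile 40 of their list in both conditions.

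Division of 1 well-watered peak into several drought-stressed peaks was rare. It was seen for 30 of 2215 pericentromeric peaks (1.35%), against 467 of 26579 in the rest (1.76%). Of the 30 pericentromeric peaks, 1 met 3 drought-stressed peaks, the peak chr11:13443629-13445369 of 1741 bp, over parts of 148, 683 and 476 bp. Of the 467 in the rest, 13 met 3 and 1 met 4.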

How the data were processed

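H4K5ac ChIP-seq of 4 leaf libraries, 2 well-watered and 2 drought-stressed, was used as 2 deposited peak lists, 1 per condition. The labels tie the 2 replicates of each condition to a single list and do not say whether they are separate plants. BWA, deepTools, MACS2 and SAMtools are named, without versions, per the submitters' processing notes. Build, calling threshold, input control and the way replicates entered a list: not given in the sources used here. The lists hold the start and end of each deposited peak and the authors' score, whose scale is not stated. Scores were used to rank or filter peaks within a list.

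Peaks with a midpoint within 2 Mb of the centromere position were taken as pericentromeric, and all other peaks of chromosomes 1 to 12 as the rest. The length of a chromosome was the end of its last peak in either list. Peaks on the unplaced sequences Un and Sy were in neither group. Overlap meant at least 1 bp, and a 1-to-1 pair was 2 peaks that overlapped each other and nothing else (pandas 2.3.3 and numpy 2.4.6 under Python 3.11.15, with matplotlib 3.10.9 for figures and scipy 1.17.1 for intervals). The counts of peaks without overlap were the same by bedtools 2.31.1. The procedure recovered changes planted in a copy of the well-watered list, with peaks dropped, added or narrowed. Density, gaps and score classes were not part of that check. Shares carry Wilson and medians order-statistic 95% intervals, and a count of 0 allows up to 3 counts. There was no test between conditions, since no value per replicate exists. The gene table at hand is of another assembly: its last gene lay 157 to 4535 kb beyond the last peak on the 12 chromosomes. No gene was therefore assigned and no sequence is shown.

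The members, lists and measures were chosen with earlier results of these data known. Named regions were, per list, the 5 highest-scored, the 5 widest and the 5 highest-scored single-list pericentromeric peaks and the 3 longest gaps, with the 3 largest losses and gains of width and the most divided peak. The series of short peaks, the flanks of 2 to 4 Mb and the short, highest-scored peaks were chosen after the data were seen.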

Additional observations from a re-analysis of the deposited data

How the results depend on the processing

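Each of 14 differences between the pericentromeric region and the rest was recomputed with every chromosome left out in turn, and all 168 values stayed within the counting interval of the reported value. Each such value shares most of its peaks with the reported one, so it could hardly leave that interval. With chromosome 12 left out, the density ratios were the lowest of these, 0.542 and 0.550. The difference of the narrower share, itself within counting error, then became 0.513 points in place of -0.567. Of 148 other values 125 stayed within that interval and 0 of those differing beyond counting error changed direction. With a limit of 1 Mb the well-watered density ratio became 0.539, the well-watered gap ratio 1.91, and the excess of short peaks among the highest-scored 6.77 and 9.09 percentage points (well-watered and drought-stressed), in place of 4.15 and 5.19. With peaks above the median score only, the density ratios became 0.638 and 0.652 and the gap ratios 1.63 and 1.58, in place of 1.80 in both lists. Reciprocal overlap of 50% put the difference of the drought-stressed-only share at -0.939 points, and weighting to score classes put that of the well-watered-only share at 1.66 points. With short set at 200 bp, the excess of short peaks became 1.58 and 1.62 points. Against the flanks of 2 to 4 Mb, chosen after the data were seen, the density ratios became 0.894 and 0.907, the gap ratios 1.24 and 1.23, the width differences 45 and 33 bp, and the excess of short peaks 0.671 and 2.06 points. There the difference of the drought-stressed-only share was -0.395 points, that of the narrower share 3.03 points and that of the median width change 1 bp. Moving all centromere positions by 0.5 Mb either way kept each value within its interval, although a move by -0.5 Mb put the well-watered width difference at -4.5 bp in place of 9 bp. The causes of these shifts were not tested. No paired analysis was possible because the lists hold no values per replicate, which also means that leaving out a replicate was not possible. Depth is unknown, and its part in these values was not tested.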

Other observations

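The sides of the centromere positions were unequally filled on some chromosomes and nearly evenly on others. On chromosome 1, 84 well-watered peaks lay on the lower-coordinate side within 2 Mb and 142 on the other, and the drought-stressed list had 69 and 129. On chromosome 2 the order was the opposite, with 127 and 78 well-watered and 112 and 79 drought-stressed peaks, and on chromosome 4 the numbers were 88 and 53, and 78 and 53. The sides were closer on chromosome 10, with 88 and 82 well-watered and 81 and 75 drought-stressed peaks. The lower-coordinate side held more peaks on 8 of 12 chromosomes in both lists.

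Peaks on the unplaced sequences Un and Sy, which have no centromere position, were short in both lists. Un held 54 well-watered peaks with a median width of 323 bp and 51 drought-stressed peaks with a median of 303 bp. Sy held 35 and 33 peaks, with medians of 199 and 212 bp. No counterpart was listed for 6 of the 54 and 6 of the 35 well-watered peaks.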
